A study of Mus musculus with 6 samples.

Results

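The mitochondrial ribosomal proteins were followed in the epididymal white fat of mice with 1 altered Pparg allele. The family was taken as every gene whose single symbol in the platform annotation began with Mrpl or Mrps and a number, and each gene was read from its brightest probe set over the 6 arrays, leaving out sets prone to bind related transcripts where another existed. That rule gave 76 of the 18193 genes named on the array, and all 76 were bright enough to be among the 11201 genes tested. The study compared 3 Pparg ldi/+ males, which carry the ldi allele of Pparg over a normal copy, with 3 litter-matched wild-type males. All were 10 weeks old and of mixed C57BL6;129Sv background, and the groups were set by the ldi allele. Other allele differences between mice of this mixed background were not measured. Each MOE430v2.0 array held RNA of epididymal white adipose tissue from 1 mouse, so the spread between arrays includes that between animals. The labels call the ldi/+ mice lipodystrophic. They do not say which part of Pparg the allele alters.

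Mitochondria keep their own ribosome, which translates the few messenger RNAs made from mitochondrial DNA into core subunits of the respiratory chain and the ATP synthase. Its ribosomal RNAs come from mitochondrial DNA, while all of its proteins are encoded in the nucleus, made by cytosolic ribosomes and imported. Some of these proteins descend from bacterial ribosomal proteins and others were added in the mitochondrial lineage. The product of Pparg is a nuclear receptor required to form fat cells, and mitochondrial content is known to increase as fat cells mature.

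Transcripts of this family differed little between the genotypes. Of the 76 members, 4 rose and 7 fell in Pparg ldi/+ fat at an adjusted p under 0.05 (limma, Benjamini-Hochberg over all 11201 genes), which is 14.5% of the members called. Over all genes tested 32.7% were called, 16.3% higher and 16.4% lower. The members that rose were Mrpl41 and Mrpl52 of the large subunit and Mrps2 and Mrps23 of the small subunit. Those that fell were Mrpl40, Mrpl45, Mrpl50, Mrpl51 and Mrps30 of the large subunit and Mrps21 and Mrps31 of the small subunit. The log2 differences ran from -0.59 in Mrps30 to 0.52 in Mrpl41, and no member reached a 2-fold difference, against 961 genes, or 8.58%, of all those tested.

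The promoters of 5 of the called members are shown first, because they hold the motifs of factors known to drive genes of the mitochondrial translation machinery and belong to members that moved in opposite directions. Sequences are from RefSeq, build GRCm38.p6, and run 5′ to 3′ on the gene's strand from 250 bases before its start to 50 bases after it. Capitals mark the matches found. In Mrps30 (chr13:118387203-118387502, minus strand) and Mrpl50 (chr4:49521034-49521333, minus strand), which fell, they mark the YY1 motif ATGGCGGC. In Mrpl52 (chr14:54426659-54426958, plus strand), which rose, they mark the ETS motif CCGGAAG read from the other strand. In Mrpl45 (chr11:97315466-97315765, plus strand), which fell, they mark the NRF1 motif, GCGCA and GCGC with any single base between them, on either strand. In Mrps21 (chr3:95871465-95871764, minus strand), which fell, they mark 1 NRF1 and 1 ETS match.
Mrps30: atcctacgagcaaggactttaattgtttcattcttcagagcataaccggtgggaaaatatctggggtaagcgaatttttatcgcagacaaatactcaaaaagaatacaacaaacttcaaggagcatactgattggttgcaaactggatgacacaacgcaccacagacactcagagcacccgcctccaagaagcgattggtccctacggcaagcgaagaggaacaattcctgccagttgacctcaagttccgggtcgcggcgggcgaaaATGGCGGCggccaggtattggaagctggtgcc
Mrpl50: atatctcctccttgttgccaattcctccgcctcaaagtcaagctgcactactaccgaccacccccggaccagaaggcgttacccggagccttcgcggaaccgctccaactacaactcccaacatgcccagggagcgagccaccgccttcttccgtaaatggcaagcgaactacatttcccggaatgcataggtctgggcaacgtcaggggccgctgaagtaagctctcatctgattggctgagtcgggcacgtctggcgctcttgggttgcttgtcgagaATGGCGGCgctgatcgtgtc
Mrpl52: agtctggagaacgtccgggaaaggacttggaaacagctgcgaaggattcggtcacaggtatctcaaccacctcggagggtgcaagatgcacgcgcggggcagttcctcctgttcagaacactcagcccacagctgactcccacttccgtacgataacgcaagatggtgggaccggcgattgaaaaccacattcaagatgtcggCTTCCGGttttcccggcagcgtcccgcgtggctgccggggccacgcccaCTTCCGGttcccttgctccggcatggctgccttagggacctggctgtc
Mrpl45: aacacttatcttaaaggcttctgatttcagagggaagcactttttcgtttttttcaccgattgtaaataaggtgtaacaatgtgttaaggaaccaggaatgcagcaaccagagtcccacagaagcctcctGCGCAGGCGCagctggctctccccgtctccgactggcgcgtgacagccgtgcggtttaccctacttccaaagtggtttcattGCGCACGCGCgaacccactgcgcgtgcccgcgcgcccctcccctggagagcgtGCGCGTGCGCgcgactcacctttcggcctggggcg
Mrps21: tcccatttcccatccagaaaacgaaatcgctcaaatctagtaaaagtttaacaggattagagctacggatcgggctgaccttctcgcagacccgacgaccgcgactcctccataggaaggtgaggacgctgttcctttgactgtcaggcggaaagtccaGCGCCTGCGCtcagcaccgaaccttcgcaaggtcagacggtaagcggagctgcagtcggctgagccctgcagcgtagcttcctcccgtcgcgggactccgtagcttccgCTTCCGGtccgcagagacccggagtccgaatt

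The values below are signals, which are the deposited intensities after each array was scaled to a trimmed mean of 500, and the log2 differences are those of log2(signal + 32), Pparg ldi/+ minus wild type. The offset makes differences of dim genes look smaller. Signals of different probe sets do not rank transcripts, because each probe set binds with its own strength. In wild-type fat the family spanned mean signals from 380 ± 86.6 (SD, n = 3) for Mrps27 to 5236 ± 693 for Mrps6. Neither of these moved past the threshold: Mrps27 was at 324 ± 17.5 (SD, n = 3) and Mrps6 at 5530 ± 401 in Pparg ldi/+ fat, with log2 differences of -0.19 and 0.08.

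In the large subunit, 2 members rose. Mrpl52, a protein of the large subunit with no bacterial counterpart, had signals of 962, 1007 and 861 in wild-type mice 1 to 3 and of 1386, 1265 and 1363 in Pparg ldi/+ mice 1 to 3. Every Pparg ldi/+ array lay above every wild-type array, and the difference was 0.49 (SE 0.094, 95% confidence interval 0.28 to 0.71, limma adjusted p = 0.00408). Mrpl41, also without a bacterial counterpart and described outside the ribosome as a partner of Bcl2 family proteins, had signals of 1345, 1671 and 2158 in wild-type fat and of 2369, 2348 and 2645 in Pparg ldi/+ fat. The groups did not overlap, though the wild-type mice were spread widely, and the difference was 0.52 (SE 0.154, 95% confidence interval 0.17 to 0.88, limma adjusted p = 0.0296).

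In the same subunit, 5 members fell, and in each of them the highest Pparg ldi/+ signal was under the lowest wild-type signal. Mrps30, which carries a small-subunit name but sits in the large subunit, had signals of 1298, 980 and 1370 in wild-type fat and of 922, 664 and 794 in Pparg ldi/+ fat. Its difference of -0.59 was the farthest from 0 in the family (SE 0.157, limma adjusted p = 0.0189). Mrpl40, a protein of the central protuberance, the ridge that faces the small subunit, gave 1025, 1290 and 1030 in wild-type fat against 757, 734 and 864 in Pparg ldi/+ fat, a difference of -0.48 (SE 0.119, limma adjusted p = 0.014). Wild-type mouse 2 was the highest of its group here.

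Mrpl50, another member with no bacterial counterpart, gave signals of 1131, 1136 and 1003 in wild-type fat and 839, 822 and 724 in Pparg ldi/+ fat, a difference of -0.44 (SE 0.1, limma adjusted p = 0.00992). Mrpl45 lies at the exit of the peptide tunnel and helps to hold the ribosome to the inner membrane, where its products are inserted. Its signals were 920, 887 and 1017 in wild-type fat and 697, 817 and 711 in Pparg ldi/+ fat, a difference of -0.33 (SE 0.104, limma adjusted p = 0.0387). Mrpl51 differed by less, with -0.23 (SE 0.064, limma adjusted p = 0.025), but its arrays lay close together, at 3934, 3963 and 3970 in wild-type fat and 3415, 3384 and 3330 in Pparg ldi/+ fat.

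In the small subunit, 2 members rose. Mrps2, the counterpart of a bacterial protein that binds the head and body of the subunit, had signals of 671, 677 and 719 in wild-type fat and of 987, 931 and 878 in Pparg ldi/+ fat. The groups did not overlap, and the difference was 0.42 (SE 0.093, 95% confidence interval 0.21 to 0.63, limma adjusted p = 0.00885). Mrps23, found only in mitochondrial ribosomes, had signals of 1102, 1282 and 1076 in wild-type fat and of 1408, 1420 and 1522 in Pparg ldi/+ fat, again without overlap, and a difference of 0.33 (SE 0.095, limma adjusted p = 0.0295).

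Mrps31 and Mrps21 fell in the small subunit. Mrps31, which has no bacterial counterpart, had signals of 577, 795 and 703 in wild-type fat and of 506, 514 and 401 in Pparg ldi/+ fat, a difference of -0.51 (SE 0.149, limma adjusted p = 0.0284). Mrps21, the counterpart of a small bacterial ribosomal protein, had signals of 2316, 2300 and 2054 in wild-type fat and of 1895, 1782 and 1903 in Pparg ldi/+ fat, a difference of -0.25 (SE 0.082, limma adjusted p = 0.0434). In both, all 3 Pparg ldi/+ mice were below the lowest wild-type mouse.

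**Figure D1:**
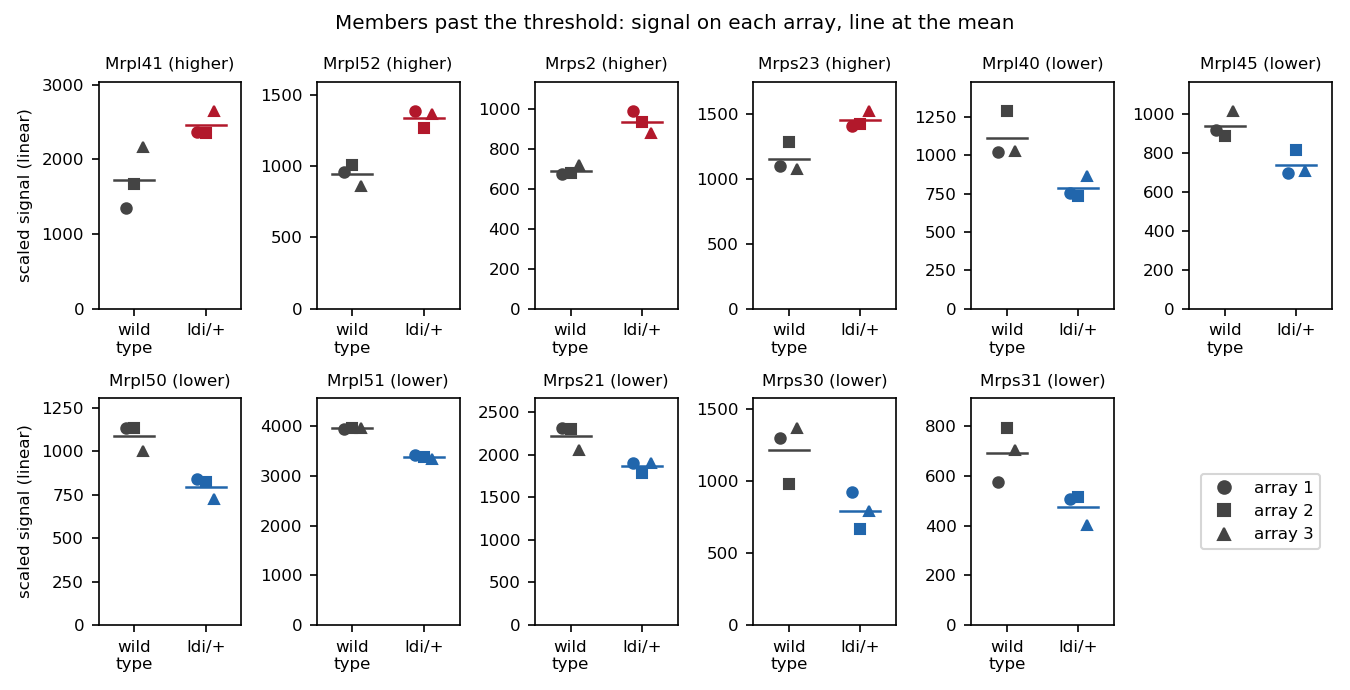
Signals of the 11 called members on each array, scaled to a trimmed mean of 500, with a point per mouse and a line at each group's mean; the axes start at 0. In each panel the 3 Pparg ldi/+ points lie wholly above or wholly below the 3 wild-type points.

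The calls differed in how far they rested on single mice. Leaving out any 1 of the 6 arrays kept the calls of Mrpl52 (differences of 0.43 to 0.54), Mrps2 (0.38 to 0.46) and Mrpl50 (-0.50 to -0.38). The call of Mrpl40 ended without Pparg ldi/+ mouse 1 (-0.46, limma adjusted p = 0.0529, range 0.0185 to 0.0529 over the 6 omissions). That of Mrps30 ended without Pparg ldi/+ mouse 2, wild-type mouse 1 or wild-type mouse 3, with differences of -0.48, -0.54 and -0.50. Mrps31 lost its call without Pparg ldi/+ mouse 1 (-0.56) or 3 (-0.41) or wild-type mouse 2 (-0.41) or 3 (-0.50), and Mrpl45 without Pparg ldi/+ mouse 1 (-0.29) or 3 (-0.30) or wild-type mouse 1 (-0.35) or 3 (-0.28). Mrpl51 lost it without any 1 of the Pparg ldi/+ mice or wild-type mouse 1, although its difference stayed between -0.23 and -0.22. Mrpl41 and Mrps21 lost it without any 1 of the Pparg ldi/+ mice or wild-type mouse 1 or 2, with differences over all 6 omissions of 0.36 to 0.70 and of -0.31 to -0.22. Mrps23 lost it without any 1 of the Pparg ldi/+ mice or wild-type mouse 1 or 3, with differences of 0.28 to 0.40.

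Array probe sets read different stretches of a transcript, and the family had 156 of them, so 34 members were read by 1 set and 42 by several. Of the 80 sets not used, 46 were above the brightness limit, and 27 of these had the same sign as the set used. None of the 46 had a log2 difference between the genotypes of over 0.5 in size. Some still lay far from the set used, as in Mrps25, at 0.16 by the set used and at -0.30 and -0.43 by the others. Among the called members, Mrps23 had other sets at 0.28 and 0.40, the latter able to bind related transcripts. Mrpl52 had others at 0.34, 0.36 and 0.74, the last of them dim and the one at 0.36 able to bind related transcripts. Mrps2 had another set at 0.13 and Mrpl50 another at -0.11.

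Other called members had sets that did not repeat the difference. Mrpl41 rose by its brightest set, while another set above the brightness limit stood at -0.01 and a dim one at -0.02. Mrps21 fell by its brightest set, and its dim set stood at 0.36, so that the mean of its sets gave 0.05 (limma adjusted p = 0.771). The second set of Mrpl51 was at 0.00 and a dim one at -0.11, and the dim second set of Mrps31 was at -0.03. With the mean of all probe sets, the calls of Mrpl41 (0.16), Mrpl50 (-0.27), Mrpl51 (-0.11) and Mrps31 (-0.27) were lost. Mrps30, Mrpl40 and Mrpl45 were read by 1 set each, so for them no second set exists to compare.

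**Figure D2:**
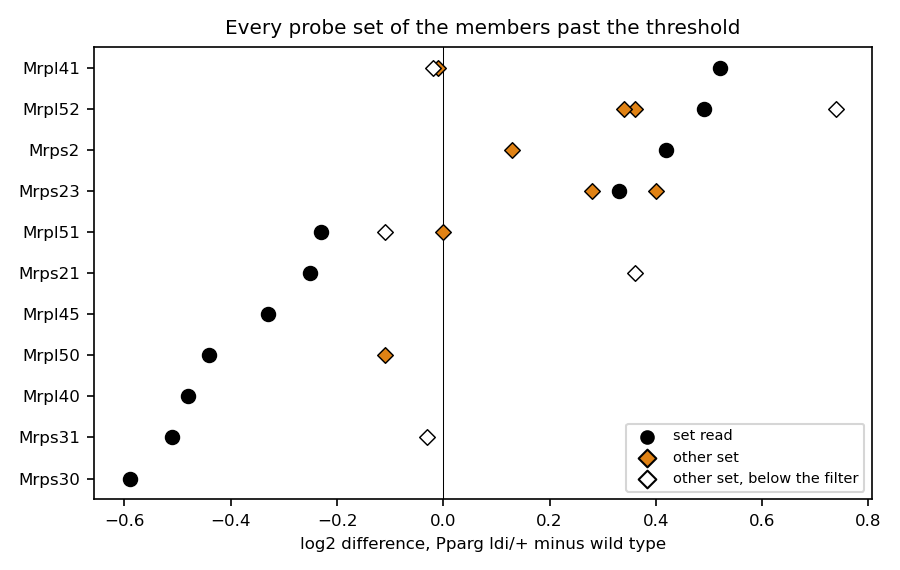
Log2 differences, Pparg ldi/+ minus wild type, of all probe sets of the 11 called members, with the set used set apart from the others and from the dim ones. The sets of Mrpl52 and Mrps23 lie on one side of 0, while those of Mrps21 lie on both.

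Of the 65 members that were not called, the 5 farthest from 0 were Mrps35, Mrpl38, Mrpl1, Mrps15 and Mrpl21. Mrps35, a small-subunit protein without a bacterial counterpart, gave signals of 820, 999 and 852 in wild-type fat and 670, 788 and 570 in Pparg ldi/+ fat, a difference of -0.39 (limma adjusted p = 0.0584). Mrpl38 of the central protuberance gave 700, 619 and 845 against 930, 796 and 1069, a difference of 0.36 (limma adjusted p = 0.094), and its groups overlapped. Mrpl1 is the counterpart of the bacterial protein at the ribosome's exit for spent transfer RNA. It gave 481, 414 and 413 against 341, 356 and 312, a difference of -0.34 (limma adjusted p = 0.0652). Another set of Mrpl1 above the brightness limit stood at 0.07 and a dim one at 0.19.

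Mrps15 gave 1254, 1327 and 1227 in wild-type fat and 1056, 1157 and 897 in Pparg ldi/+ fat, a difference of -0.29 (limma adjusted p = 0.0704). Mrpl21 gave 860, 875 and 887 against 726, 783 and 647, a difference of -0.28 (limma adjusted p = 0.0669). In Mrps35, Mrpl1, Mrps15 and Mrpl21 all Pparg ldi/+ arrays were below all wild-type arrays. Mrps36, now counted as a part of the alpha-ketoglutarate dehydrogenase complex and not of the ribosome, was at -0.23 (limma adjusted p = 0.064). The paralogs that share the name of 1 bacterial protein were at -0.17 (Mrps18a), 0.15 (Mrps18b) and -0.06 (Mrps18c), none past the threshold.

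Over the whole family 44 members lay below 0 and 32 above it, with a median of -0.06, against 0 over all genes tested. The median size of a difference, sign aside, was 0.16 in the family and 0.25 over all genes. The 95% confidence intervals of all 76 members lay within 2-fold in both directions, which held for 81.5% of all genes. In 63 members, or 82.9%, the interval lay within 1.5-fold, against 51.3% of all genes. The standard deviation between mice of 1 genotype was also smaller here, with medians of 0.105 in the family and 0.153 over all genes on the log2 scale. The family was not compared with genes of like brightness, so the part of brightness in these traits was not tested. These traits were not particular to the family. Oxidative phosphorylation subunits had a median standard deviation of 0.078, a median size of 0.10 and 87.2% of intervals within 1.5-fold. For mitochondrial aminoacyl-tRNA synthetases these were 0.144, 0.19 and 57.1%. At an unadjusted p under 0.05 in limma there were 22 members (28.9%), against 42.8% of all genes. That gap depended on the brightness filter: without it the shares were 30.3% of the members and 30.3% of all genes. The widest bounds were -0.95 for Mrps30 and 0.88 for Mrpl41.

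**Figure D3:**
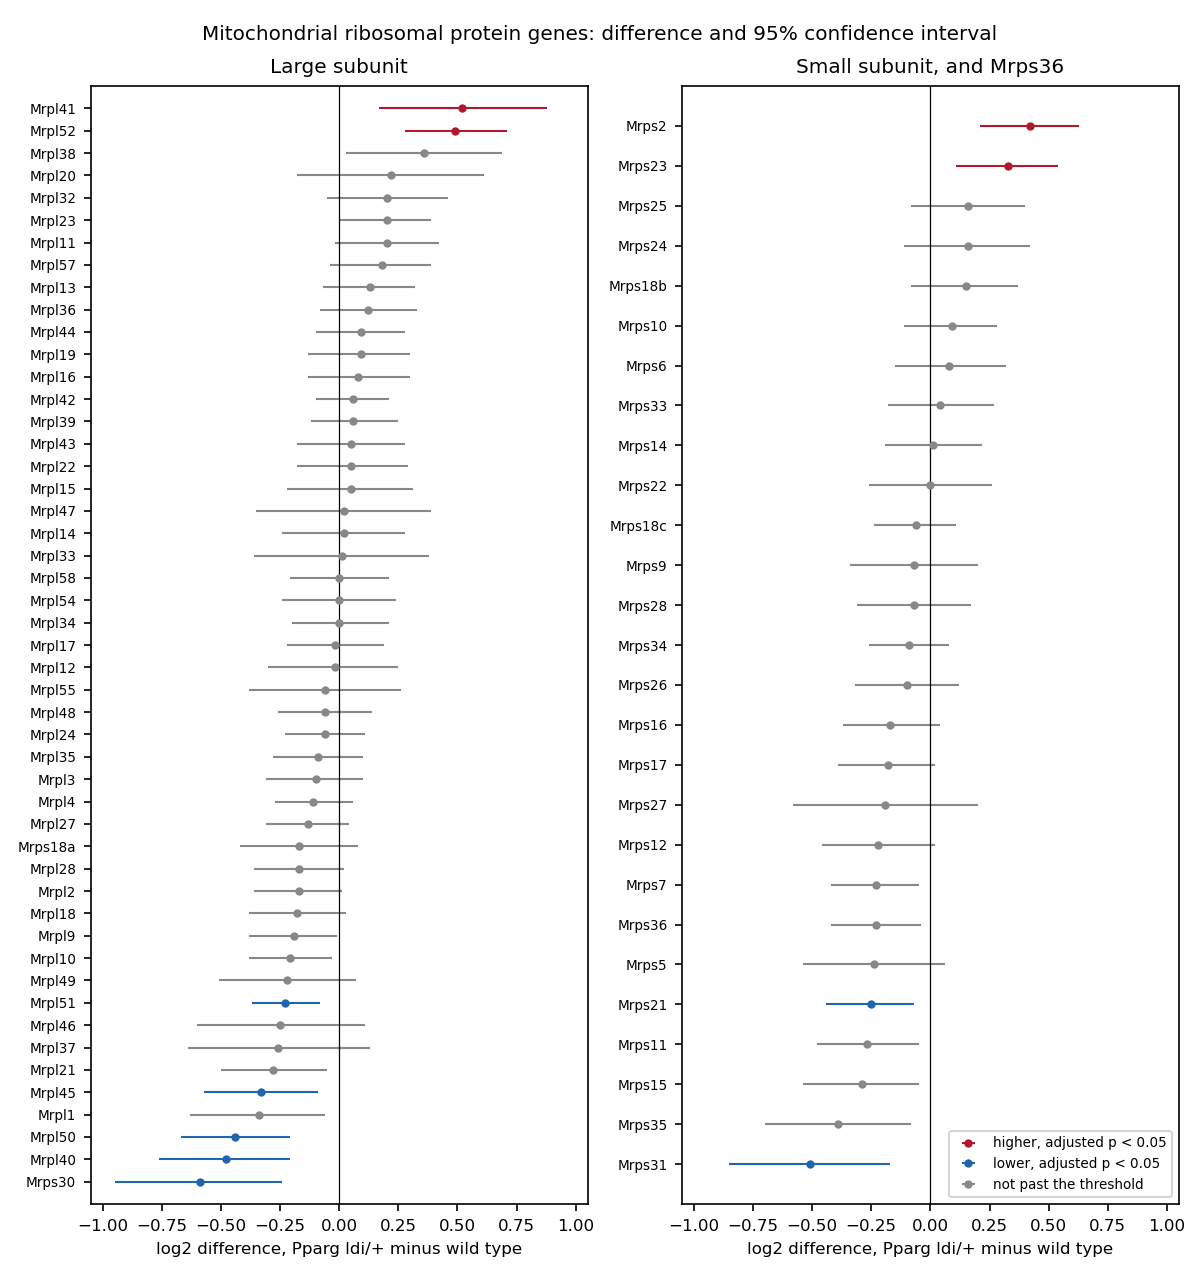
Log2 difference of each of the 76 members, Pparg ldi/+ minus wild type, ordered within the subunits, with 95% confidence intervals from limma and the called members marked. All intervals stay inside -1 and 1, which are 2-fold lower and higher.

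**Figure D4:**
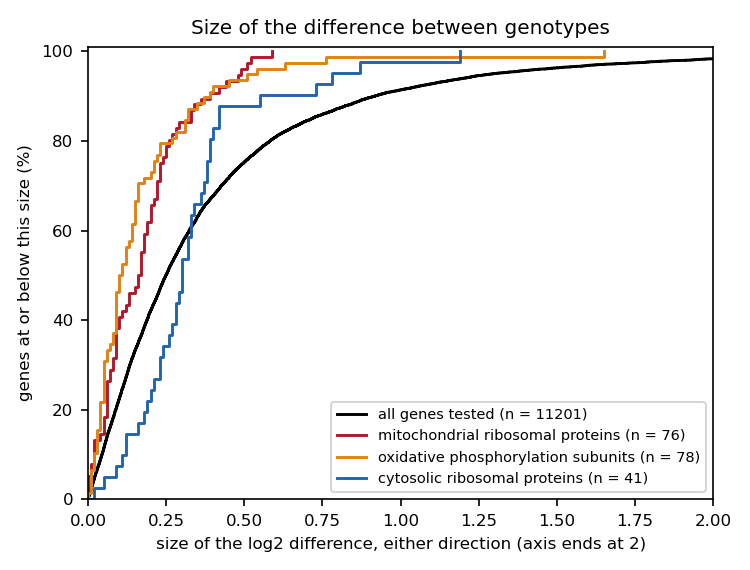
Cumulative share of genes, in percent, by the size of their log2 difference, for all genes tested, the mitochondrial ribosomal proteins, oxidative phosphorylation subunits and cytosolic ribosomal proteins. The curve of the mitochondrial ribosomal proteins ends at 0.59, while 8.58% of all genes lie at 1 or beyond.

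The groups did not overlap in 30 members, or 39.5%, against 47.6% of all genes. In 24 of these the Pparg ldi/+ arrays were the lower ones and in 6 the higher ones (31.6% and 7.89% of the members), where the background was 24% for lower and 23.6% for higher. Wild-type mouse 2 was the highest array for 29 of the 76 members and whose median deviation from the gene means was 0.097, against -0.041 to 0.011 on the other arrays. Without that array, which makes separation easier for every gene, 25 members (32.9%) lay wholly lower and 21 (27.6%) wholly higher, against 28.8% and 28% of all genes. After quantile normalisation 26 (34.2%) were wholly lower and 7 (9.21%) wholly higher, against 24.2% and 24.1% of all genes. With unscaled values the counts were 13 (17.1%) and 6 (7.89%), where all genes gave 17.9% and 22.9%. Without the brightness filter the shares of the members stayed at 31.6% and 7.89%, while those of all genes were 17.1% and 18.3%.

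By structure, 7 of 49 large-subunit members (14.3%) and 4 of 26 small-subunit members (15.4%) were called, with medians of -0.02 and -0.08. Members classed as counterparts of bacterial ribosomal proteins numbered 44, and 2 of them were called, Mrps2 and Mrps21 (4.55%). Of the 30 members classed as specific to mitochondria 9 were called, 3 higher and 6 lower (30%), which is close to the 32.7% of all genes. Mrps18a and Mrps18b were put in this class, although they share the name of a bacterial protein with Mrps18c, which was put in the other. The medians were -0.06 in the class of bacterial counterparts and -0.03 in the mitochondria-specific class, and the difference between the classes was not tested. Mrpl55 and Mrps36 were put in neither class.

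None of the 3 proteins of the stalk that recruits elongation factors was called, with Mrpl10 at -0.21, Mrpl11 at 0.20 and Mrpl12 at -0.02. The other probe sets of Mrpl11 stood at -0.36 and -0.15, both able to bind related transcripts, and a dim one at -0.53. Of 6 members around the peptide exit tunnel Mrpl45 was called, and of 6 in the central protuberance Mrpl40 (16.7% each, beside 14.5% of the family and 32.7% of all genes). The release factor Mrpl58, which frees stalled chains, was at 0.

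Other genes of mitochondrial protein synthesis were set beside the family as lists. Over all genes tested 32.7% were called, 16.3% higher and 16.4% lower. The 4 further ribosomal proteins with other names, among them Dap3 (-0.19, limma adjusted p = 0.14) of the small subunit, had no call and a median of -0.07. Among 12 translation factors 1 fell (8.33%), the ribosome recycling factor Mrrf (-0.37, limma adjusted p = 0.0112). The release factor Mtrf1l stood at -0.35 (limma adjusted p = 0.117). Of 14 mitochondrial aminoacyl-tRNA synthetases tested, which load transfer RNAs, 3 fell and none rose, with a median of -0.15. That is 21.4% called, against 32.7% of all genes. The synthetases that fell were Hars2 (-0.58, limma adjusted p = 0.0154), Ears2 (-0.51, limma adjusted p = 0.0229) and Lars2 (-0.43, limma adjusted p = 0.0353). The 3 subunits of the amidotransferase that completes glutaminyl-tRNA in mitochondria had no call, with Gatb at -0.16, Gatc at -0.23 and Qrsl1 at 0.22.

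Ribosome assembly and rRNA modification had 2 genes higher and 1 lower of 26 (11.5% called, against 32.7% of all genes), with a median of -0.02. The GTPase Mtg2, which acts in large-subunit assembly, fell (-0.66, limma adjusted p = 0.00309). Slirp, which stabilises mitochondrial messenger RNAs, rose (0.40, limma adjusted p = 0.0111), as did the membrane insertase Oxa1l (0.30, limma adjusted p = 0.0422). Mitochondrial transcription and biogenesis genes had 1 higher and 2 lower of 20 (15% called). The DNA polymerase Polg fell (-0.30, limma adjusted p = 0.021), Yy1 fell (-0.25, limma adjusted p = 0.0387), and the coactivator Pprc1 rose (0.35, limma adjusted p = 0.0304). The factors that are known to act on promoters of this family were otherwise not past the threshold, with Nrf1 at 0.05, Gabpa at -0.11, Esrra at 0.19 and Ppargc1a at 0.14.

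The partners of the mitochondrial ribosome's products and its cytosolic counterpart gave different counts. Of 78 oxidative phosphorylation subunits 5 rose and 8 fell (16.7%, against 32.7% of all genes), with a median of -0.02. The smallest p-values were those of Ndufb3 of complex I, at -0.76 (limma adjusted p = 0.000542), and of Cox7a1 of complex IV, at 1.65 (limma adjusted p = 0.000992). Of 41 cytosolic ribosomal proteins 28 rose and none fell (68.3%, where 16.3% of all genes rose and 16.4% fell). Rpl37 was at 0.73 (limma adjusted p = 0.00014) and Rps25 at 1.19 (limma adjusted p = 0.000178), and the median of the list was 0.30. That median was 0.26 with quantile normalisation (26 higher) and 0.34 without scaling (25 higher). Of all genes 33.5% and 27.9% were called in these fits, in either direction. Cytosolic ribosomal genes have many near-identical pseudogenes, so the origin of their signal is uncertain. With Pparg ldi/+ mouse 3 as the sole member of its group the median of the cytosolic ribosomal proteins was 0.28.

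**Figure D5:**
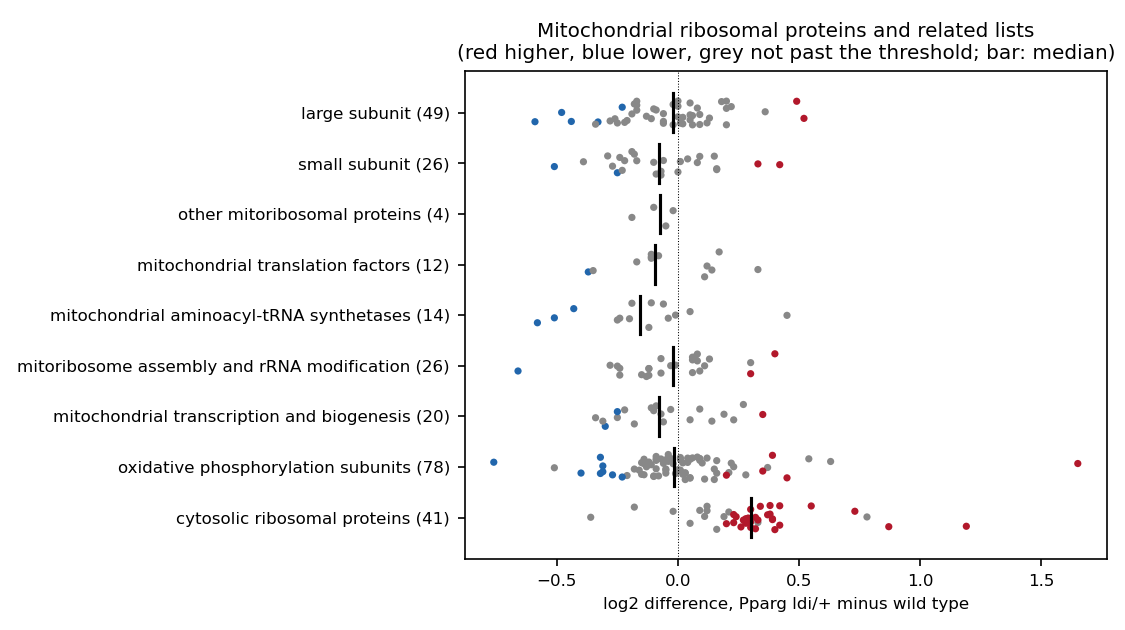
Log2 differences, Pparg ldi/+ minus wild type, of the genes in each list, a point per gene with the list's median as a line. The mitochondrial lists centre between -0.15 and -0.02 and the cytosolic ribosomal proteins at 0.30.

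The tissue itself differed in its cell markers. In bulk fat, fewer cells of a type and less RNA per cell cannot be told apart. Pparg itself, the gene that carries the ldi allele, fell from 4605 ± 341 to 1781 ± 104 (SD, n = 3; -1.35, limma adjusted p = 1.04e-05). Of 10 adipocyte markers 7 fell, Pparg among them. The summed signal of the 10, which includes that of Pparg, was 173860 to 192833 in wild-type fat and 103893 to 113786 in Pparg ldi/+ fat. All 16 macrophage markers rose, from sums of 48058 to 63687 to sums of 133587 to 136723. Of 9 endothelial markers 7 fell, with sums of 20611 to 21759 and 9865 to 11843, and 3 of 6 stromal markers rose, with sums of 57485 to 61370 and 63223 to 68177. The part of these shifts in the 11 calls and in the small differences of the other members was not tested.

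Markers of epididymal epithelium summed to 23086 and 31670 in Pparg ldi/+ mice 1 and 2, to 668 in mouse 3 and to between 580 and 1227 in wild-type fat. Spermatid markers summed to 5456 in Pparg ldi/+ mouse 2 and to between 196 and 643 elsewhere. With Pparg ldi/+ mouse 3 as the sole array of its group against the 3 wild-type arrays, where the lone mouse is assumed to vary like the others, none of the members passed the threshold in limma, and 14.5% of all genes were called. At an unadjusted p under 0.05 there were 14 members (18.4%) and 28.6% of all genes. All 11 called members kept their sign there, with Mrpl52 at 0.52, Mrps2 at 0.34 and Mrps30 at -0.58.

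Promoters were matched in RefSeq for 67 of the 76 members, which lay on 16 chromosomes. Each motif was searched on both strands in the 300 bases. The ETS motif CCGGAAG was in 25 (37.3%) of them, against 19.9% of 9044 tested genes with a promoter. The NRF1 motif was in 12 (17.9%) against 11.7%, and the YY1 motif ATGGCGGC in 11 (16.4%) against 5.67%. The SP1 motif GGGGCGGG was in 20 (29.9%) against 35.6%. None held the PPAR direct repeat of AGGTCA with 1 base between the copies, which 0.0332% of the tested genes' promoters held. At least 1 of NRF1, ETS and YY1 was in 39 (58.2%) against 32.6%. A match is a run of letters, not a bound site, and these shares were not tested.

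Of the 11 called members 7 held at least 1 of the NRF1, ETS and YY1 motifs, while Mrps2 and Mrpl41, which rose, and Mrpl40 and Mrps31, which fell, held none. Mrpl52, which rose, held ETS matches with first bases at -47 and 3 from its start, and Mrps23, which rose, at 16. Among those that fell, Mrpl51 held an ETS match at -90, Mrps21 an NRF1 match at -91 and an ETS match at 19, and Mrpl45 NRF1 matches at -120, -38 and 16. Mrps30 and Mrpl50, which fell, held the YY1 motif at 19 and 31, where its letters include an ATG. The median log2 difference was -0.06 in members with and in members without the ETS motif, -0.02 with and -0.06 without NRF1, and -0.19 with and -0.01 without YY1. The members with each motif overlap and none of these medians was tested.

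Many of these genes start close to a neighbour on the opposite strand. A gene starting within 1000 bases in the other direction was found for 25 of the 67 members (37.3%), against 1769 of 9044 tested genes (19.6%). Of 16 such neighbours that were tested, 4 rose and none fell, namely Gga3 (0.52), Psma2 (0.32), Fau (0.39) and Ndufb5 (0.20), where 16.3% of all genes rose and 16.4% fell. The 16 include 2 members that are each other's neighbour, Mrps11 and Mrpl46. This pair starts 42 bases apart and stood at -0.27 and -0.25, neither past the threshold. Mrps12 and the mitochondrial seryl-tRNA synthetase Sars2, 147 bases apart, stood at -0.22 and -0.24, while Mrpl43 and the helicase gene Twnk, 116 bases apart, stood at 0.05 and -0.09.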

How the data were processed

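The data were 6 Affymetrix MOE430v2.0 arrays, 3 per genotype, grouped by the sample titles. The deposited values are linear signal intensities for 45101 probe sets. MAS5 is named for 2 of the 6 samples per the submitters' processing notes. Neither its version nor a scaling target or detection calls were found in the labels. The number of arrays, not a read depth, limits the precision.

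Signals were scaled per array (factors of 2.12 to 2.49) so that the mean without the top and bottom 2% was 500. An offset of 32 was added to the scaled signals before log2 was taken, so these log2 values derive from the deposited intensities. Genes were named from the platform annotation where a probe set had 1 symbol, and read from the brightest probe set, leaving out sets marked x_at, which bind related transcripts, where another existed. In 4 probe sets a symbol of the family stood beside another symbol; these were not used, and Mrpl30 and Mrpl53 were therefore not members. Genes under the median brightness of all probe sets (log2 of 7.46) were not tested. The test was limma 3.58.1 (lmFit and eBayes, trend on intensity; R 4.3.3) with Benjamini-Hochberg adjustment over 11201 genes and a threshold of 0.05. The fit was also run on simulated data in which only a small share of the genes changed, so that run does not vouch for the calls here. A permutation of 3 against 3 arrays cannot give an exact two-sided p below 0.1, so none is printed.

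Members named are those called, the 5 largest differences not called, the brightest and dimmest, and called members whose probe sets differ in sign; in related lists, the 2 genes with the smallest p. Lars2, Oxa1l, Yy1, the paralogs, the stalk proteins, the factors of the motifs and the neighbouring genes were added after their values were seen. The members, lists, motifs and alternatives were chosen with earlier results of these data known. Alternatives tried were 2 other offsets, quantile and no scaling, 2 other probe set rules, 2 brightness filters, no trend, a replicate block, leaving out each array and Pparg ldi/+ array 3 alone.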

Additional observations from a re-analysis of the deposited data

How the results depend on the processing

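Over 17 alternatives, the offsets, quantile normalisation and the inclusion of x_at sets kept all 11 calls. Testing the brighter 30% of probe sets also kept them and added Mrps7 and Mrps11 (13 called, 9 lower). That was 17.6% of the members tested there, against 38.9% of all genes. Without scaling 3 members were higher and 2 lower (6.58% called, against 27.9% of all genes). The calls of Mrpl40, Mrpl45, Mrpl51, Mrps21, Mrps23 and Mrps31 were lost. The median of the members was then -0.009, while that of all genes moved from -0.004 to 0.044. With the mean of all probe sets 3 were higher and 3 lower (8.11% called, against 30.5% of all genes), and Mrps21 changed sign to 0.05. With Pparg ldi/+ array 3 alone, 0 members were higher and 0 lower in limma, with 14 at an unadjusted p under 0.05 (18.4%, against 28.6% of all genes), and 1616 of all genes were called against 3668. Leaving out single arrays gave 2 to 4 members higher, 2 to 6 lower and medians of -0.089 to -0.033. The share of members called was 5.26% to 13.2% in these fits, against 24.5% to 29.9% of all genes. The count of higher members was 2 without Pparg ldi/+ array 1, 2 or 3 or wild-type array 1. That of lower members was 2 or 3 without Pparg ldi/+ array 1 or 3 or wild-type array 1. Without a brightness filter 9 of the 11 were called (11.8% of the members, against 18.9% of all genes). Without the intensity trend 8 of the 11 were called along with Mrpl1 (11.8%, against 30.6%).

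Arrays of the same replicate number did not deviate together (r of -0.127, -0.086 and -0.095), and 0 of 3 correlated best with their own number. With 3 mice per group these correlations cannot settle whether the numbers mark litters. A replicate block gave 9 members called (11.8%, against 28.3% of all genes). Of these 7 were among the 11, with Mrpl38 and Mrps35 added, and the median was -0.061. The number of arrays limits what small differences can be seen, and without detection calls dim probe sets could not be placed against background.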
